A study of Mus musculus with 48 samples.

Results

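Genes that report on blood vessels and on the blood inside them were followed through punches of the amygdala of 48 female mice. They were chosen by symbol: 6 genes of the vessel wall (Cldn5, Pecam1, Flt1, Kdr, Tek and Cdh5) and 4 adult haemoglobin genes (Hba-a1, Hba-a2, Hbb-bs and Hbb-bt), matched to 10 of the 52636 Ensembl gene identifiers of the deposited table. All 10 were found, and all 10 passed the filter on low values in every comparison.

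The mice were of the C57BL/6NTac-Brd1 line and 8 to 11 weeks old, and were either wildtype (WT) or heterozygous for a targeted deletion in Brd1 (Brd1+/-), a gene for a bromodomain protein of histone acetyltransferase complexes. Within each genotype 8 mice received saline vehicle, 8 received 10 mg/kg imipramine (IMN, a tricyclic antidepressant) and 8 received 5 mg/kg fluoxetine (FLX, a selective serotonin reuptake inhibitor), which gives 6 groups. All mice were injected, and per the study's methods they went through behavioural tests, with a forced swim about an hour before the brains were collected. The sources name no cell type to which the deletion is limited. The study asked whether reduced Brd1 expression changes gene expression in the brain and whether antidepressants act on such changes, and each value below is in TPM, a share of transcripts in which reads are divided by gene length and scaled to a common library sum. Levels of different genes can therefore be set side by side, but the number of reads behind a value is unknown.

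Endothelial cells line every vessel, and in the brain they are joined by tight junctions, which together with transporters form the blood-brain barrier. Adult haemoglobin is a tetramer of alpha and beta chains, made in red cell precursors of the bone marrow, and circulating young red cells still carry its mRNA. Haemoglobin mRNA in a brain punch can come from blood left in the vessels, and low levels have also been described in brain cells. In a bulk sample, fewer cells of a type and less RNA per cell cannot be told apart.

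The members have the following roles. Cldn5 (claudin 5) is the main claudin of the tight junctions of the blood-brain barrier. Pecam1 (CD31) and Cdh5 (VE-cadherin) are adhesion molecules at contacts between endothelial cells. Flt1 (VEGFR1) and Kdr (VEGFR2) are receptors for vascular endothelial growth factors, with Kdr the main signalling receptor and Flt1 also acting as a decoy. Tek (Tie2) is the receptor of the angiopoietins. Hba-a1 and Hba-a2 encode adult alpha-globin, and Hbb-bs and Hbb-bt encode adult beta-globin.

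The vessel wall genes are spread over the genome, while the haemoglobin genes lie side by side in 2 clusters. On GRCm38 in the GENCODE M21 annotation, Cldn5 (ENSMUSG00000041378) lies at chr16:18776847-18778262 on the plus strand, Tek (ENSMUSG00000006386) at chr4:94739289-94874976 on the plus strand, and Cdh5 (ENSMUSG00000031871) at chr8:104101625-104144511 on the plus strand. Pecam1 (ENSMUSG00000020717) lies at chr11:106654217-106750628 on the minus strand. The receptor genes Flt1 (ENSMUSG00000029648, chr5:147561604-147726011) and Kdr (ENSMUSG00000062960, chr5:75932827-75978458) are both on the minus strand of chromosome 5. The alpha-globin genes Hba-a1 (ENSMUSG00000069919, chr11:32283511-32284465) and Hba-a2 (ENSMUSG00000069917, chr11:32296489-32297298) are on the plus strand of chromosome 11. The beta-globin genes Hbb-bs (ENSMUSG00000052305, chr7:103826534-103828096) and Hbb-bt (ENSMUSG00000073940, chr7:103812524-103813996) are on the minus strand of chromosome 7. All 10 are annotated as protein-coding.

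The 100 bases upstream of the RefSeq start site are shown for the 4 haemoglobin genes, since these moved together across libraries. They are also shown for Cldn5 and Tek, the pair of vessel wall genes with the highest Pearson r (0.747). Tek with Cdh5 stood almost level with that pair (r = 0.744), but no RefSeq promoter of Cdh5 was at hand. The sequences are RefSeq's on GRCm38.p6, written on the strand of the gene, and capitals mark the CCAAT box, the letters CACCC and the TATAA box, each read on either strand. They cover chr11:32283572-32283671 (plus) for Hba-a1, chr11:32296392-32296491 (plus) for Hba-a2, chr7:103827929-103828028 (minus) for Hbb-bs, chr7:103813924-103814023 (minus) for Hbb-bt, chr16:18776747-18776846 (plus) for Cldn5 and chr4:94739189-94739288 (plus) for Tek. The GENCODE start lies further upstream than the RefSeq start for all 4 haemoglobin genes. By the GENCODE coordinates the windows of Hba-a1 and Hbb-bs therefore lie wholly within the gene, that of Hbb-bt lies mostly within it, and that of Hba-a2 reaches into it by its last few bases.
Hba-a1: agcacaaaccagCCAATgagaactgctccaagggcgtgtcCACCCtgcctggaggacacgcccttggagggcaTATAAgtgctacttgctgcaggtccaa
Hba-a2: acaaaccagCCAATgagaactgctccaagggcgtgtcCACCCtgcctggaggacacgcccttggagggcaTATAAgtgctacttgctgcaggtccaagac
Hbb-bs: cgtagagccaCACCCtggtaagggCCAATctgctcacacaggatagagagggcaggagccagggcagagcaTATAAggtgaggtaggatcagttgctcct
Hbb-bt: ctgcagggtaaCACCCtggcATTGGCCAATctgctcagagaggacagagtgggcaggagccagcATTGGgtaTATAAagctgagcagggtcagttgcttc
Cldn5: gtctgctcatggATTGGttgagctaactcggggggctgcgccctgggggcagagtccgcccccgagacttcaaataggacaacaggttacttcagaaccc
Tek: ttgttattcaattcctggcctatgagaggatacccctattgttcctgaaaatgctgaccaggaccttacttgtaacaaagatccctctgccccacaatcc

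All 4 haemoglobin windows hold the CCAAT box, the letters CACCC and the TATAA box. In both alpha-globin windows the CCAAT box comes first and CACCC next, in both beta-globin windows CACCC comes before CCAAT, and the TATAA box is nearest to the start in all 4. The windows of Hba-a1 and Hba-a2 share a run of 97 bases, and those of Hbb-bs and Hbb-bt share a longest run of 14. Among all 32851 RefSeq promoters of 300 bases (250 before to 50 after the start), 37.4% held CCAAT on either strand, 57.5% held CACCC and 24.9% held TATAA. Over that longer window CCAAT was in 4 of 4 haemoglobin promoters and in 1 of the 4 vessel wall promoters at hand, those of Cldn5, Flt1, Kdr and Tek, and TATAA was in 4 of 4 and in 1 of 4. CACCC did not separate the sets, being in 4 of 4 haemoglobin and in 4 of 4 vessel wall promoters. GATAA, which holds the core letters bound by GATA factors, was in 25.4% of all promoters, in 4 of 4 haemoglobin promoters and in 1 of 4 vessel wall promoters. GGAA, the core letters bound by ETS factors, was in 96.0% of all promoters, in 3 of 4 haemoglobin and in 3 of 4 vessel wall promoters. These are matches of short letters only.

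Several facts about the libraries bear on these genes. The targeted gene Brd1 stood at 35.6 ± 5.09 TPM with vehicle in WT mice, against 26.0 ± 2.90 TPM in Brd1+/- mice (SD, n = 8). The same pair of values was 36.9 ± 2.83 against 23.4 ± 4.84 TPM with IMN and 32.9 ± 4.45 against 23.5 ± 3.49 TPM with FLX. Its adjusted p from limma was 0.0512, 0.102 and 0.0362. The summed level of 8 choroid plexus markers ran from 8.84 to 29781 TPM, with a median of 24.3, and was over 1000 TPM in 9 libraries, 1 or 2 in each group. It was far above the rest in WT vehicle replicate 1 (29781 TPM) and Brd1+/- FLX replicate 8 (29137 TPM), so the main relations across libraries are also given without these 2. The summed level of 6 striatal projection neuron markers ran from 101 to 7290 TPM, which shows how unequal the tissue in the punches was. No marker of these 2 lists was at 0 in every library.

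Haemoglobin mRNA was the more abundant of the 2 sets in every library. Over 48 libraries the means were 121.4 ± 66.8 TPM for Hbb-bs, 107 ± 60.0 for Hba-a2, 88.9 ± 49.0 for Hba-a1 and 72.2 ± 40.4 for Hbb-bt (SD, n = 48). The vessel wall genes followed in the order Cldn5 (28.9 ± 5.83 TPM), Flt1 (21.7 ± 4.84), Pecam1 (15.1 ± 3.61), Cdh5 (6.47 ± 1.63), Tek (4.91 ± 1.19) and Kdr (3.85 ± 1.97). Neighbours in this order differed by less than the larger of their SDs among the 4 haemoglobin genes, between Cdh5 and Tek, and between Tek and Kdr. The steps from Hbb-bt to Cldn5, from Cldn5 to Flt1, from Flt1 to Pecam1 and from Pecam1 to Cdh5 were larger than that. The ratio of summed haemoglobin to summed vessel wall TPM had a median of 4.14 and ran from 1.47 in WT IMN replicate 7 to 11.0 in Brd1+/- FLX replicate 8.

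The sets differed in how much they varied between mice of the same group. On the log2(TPM + 0.1) scale, the SD after group means were removed was 0.669 for Hba-a1, 0.674 for Hba-a2, 0.650 for Hbb-bs and 0.671 for Hbb-bt, larger than that of 76.1% to 77.3% of the 19222 genes with a mean of at least 1 TPM. Cldn5 had an SD of 0.262 and the other vessel wall genes except Kdr had SDs between 0.301 and 0.344, below the median of 0.356 over all those genes. Kdr stood with the haemoglobin genes, at 0.636, larger than 75.4% of genes. From the lowest to the highest of 48 libraries Cldn5 varied 2.48-fold, Flt1 2.62-fold and Kdr 11.8-fold, while the haemoglobin genes varied 7.13-fold to 7.71-fold. Kdr had the lowest mean of the 10, and the number of reads behind it is unknown.

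**Figure D1:**
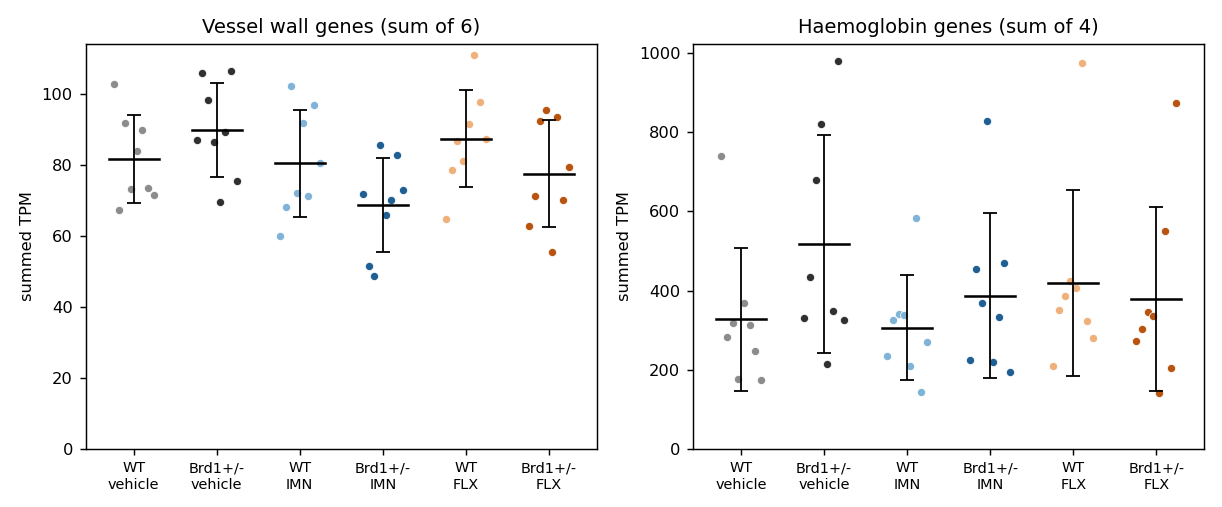
Summed TPM of the 6 vessel wall genes (left) and the 4 haemoglobin genes (right) in each of 48 libraries by group; points are libraries, the long bar is the group mean and the error bar is 1 SD (n = 8). The vessel wall sum stayed between 48.8 and 111 TPM, while the haemoglobin sum ran from 141 to 982 TPM with 1 to 3 high libraries in a group, and the groups overlapped on both measures.

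The haemoglobin genes rose and fell as 1 unit from mouse to mouse. The summed haemoglobin level ran from 173 over a median of 297 to 741 TPM in WT vehicle mice and from 213 over 391 to 982 TPM in Brd1+/- vehicle mice. With IMN it ran from 143 over 298 to 585 TPM in WT and from 195 over 351.4 to 830.0 TPM in Brd1+/- mice. With FLX it ran from 210 over 368 to 975 TPM in WT and from 141 over 320 to 874 TPM in Brd1+/- mice. All 6 ranges overlapped, and in each group 1 to 3 libraries stood well above the rest. A single library did so in WT vehicle (replicate 1), WT IMN (replicate 6), Brd1+/- IMN (replicate 4) and WT FLX (replicate 6). In Brd1+/- FLX mice replicates 6 and 8 held 550 and 874 TPM, and in Brd1+/- vehicle mice replicates 3, 4 and 7 held 680, 821 and 982 TPM.

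Single haemoglobin genes had the same shape. Hba-a2 ran from 49.6 over 83.9 to 210 TPM in WT vehicle and from 60.2 over 115 to 273 TPM in Brd1+/- vehicle mice. With IMN it ran from 40.7 over 84.5 to 157 TPM in WT and from 52.9 over 91.0 to 225 TPM in Brd1+/- mice. Under FLX its range went from 50.2 over 98.0 to 267 TPM in WT and from 36.5 over 82.2 to 233 TPM in Brd1+/- mice. All 6 ranges of Hba-a2 overlapped broadly. Hbb-bs, the most abundant member, ran from 51.9 over 85.7 to 221 TPM in WT vehicle and from 66.9 over 118 to 297 TPM in Brd1+/- vehicle mice. With IMN Hbb-bs ran from 43.2 over 88.8 to 186 TPM in WT and from 63.9 over 117 to 261 TPM in Brd1+/- mice. Its FLX values went from 73.2 over 116 to 311 TPM in WT and from 47.2 over 104 to 281 TPM in Brd1+/- mice. Those ranges overlapped as well. Hba-a1 lay between 29.5 and 227 TPM and Hbb-bt between 25.8 and 184 TPM over all libraries.

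The values of the near-identical copies cannot be fully separated. Of the 505 windows of 50 bases, the length of a read, in the Hba-a2 transcript, 439 (86.9%) also occur in Hba-a1, and 65.8% of those of Hbb-bs also occur in Hbb-bt. No window is shared between an alpha-globin and a beta-globin transcript. The ratio of Hba-a1 to Hba-a2 was 0.836 ± 0.0231 and that of Hbb-bt to Hbb-bs 0.592 ± 0.0229 (SD, n = 48). Group means ran from 0.822 to 0.855 for the first ratio and from 0.589 to 0.595 for the second.

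Other genes of the red cell lineage were near 0. Slc4a1, the band 3 anion exchanger of the red cell membrane, and Hemgn were listed at 0 in all 48 libraries. Alas2, which makes the first enzyme of haem synthesis in red cell precursors, was the 1 other erythroid gene of 10 measured with a mean over 1 TPM (1.72 ± 1.37, SD, n = 48), and the 1 that passed the filter in the 7 comparisons of groups. These 7 comparisons gave 0 calls, and its deviations from the group means followed those of the haemoglobin genes with r = 0.66 over 48 libraries and 0.62 without the 2 libraries rich in choroid plexus markers. The summed level of the 10 erythroid genes ran from 0.297 to 1.63 TPM in WT vehicle and from 0.614 to 6.93 TPM in Brd1+/- vehicle mice. Of 4 embryonic globin genes, Hba-x, Hbb-bh1 and Hbb-bh2 were listed at 0 everywhere, and Hbb-y was at 0 in 47 libraries. Granulocyte and lymphocyte genes were near 0 too: 9 such genes summed to at most 3.29 TPM in any library, with a median of 0 and with S100a9, Camp and Ly6g at 0 in every library. Of 4 platelet genes, Itga2b had the highest mean (3.87 TPM), and Pf4, chosen after its values were seen, was at 0 in 22 libraries.

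**Figure D2:**
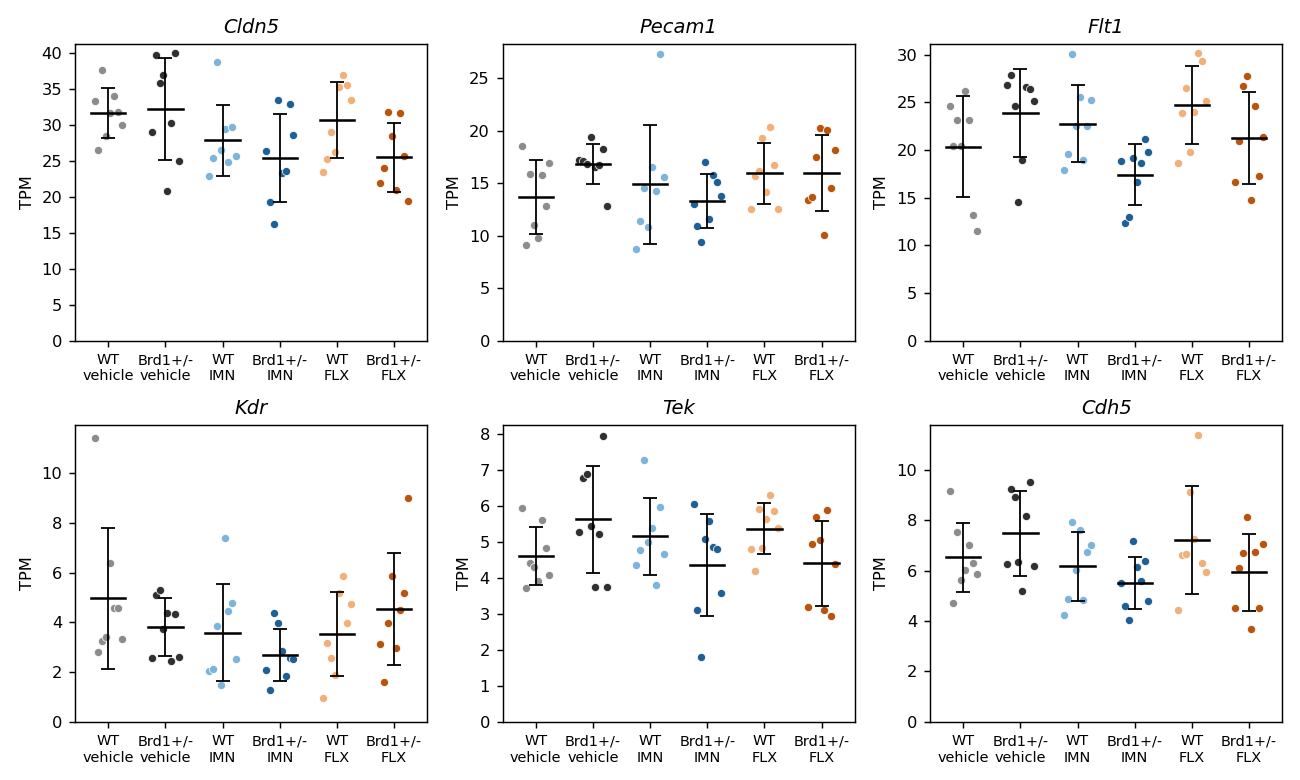
TPM of each vessel wall gene in 48 libraries by group, with a linear axis from 0 for each gene; points are libraries, the long bar is the group mean and the error bar 1 SD (n = 8). The 8 points of each group overlap those of every group they were compared with, and Kdr shows the widest scatter, from 0.968 to 11.4 TPM.

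The vessel wall genes varied less, and their groups overlapped for each gene. Flt1 ran from 11.5 over 21.8 to 26.2 TPM in WT vehicle and from 14.6 over 25.8 to 27.9 TPM in Brd1+/- vehicle mice. With IMN it ran from 17.9 over 22.5 to 30.1 TPM in WT and from 12.3 over 18.7 to 21.1 TPM in Brd1+/- mice. With FLX it ran from 18.7 over 24.6 to 30.2 TPM in WT and from 14.8 over 21.2 to 27.8 TPM in Brd1+/- mice. Flt1 was thus lowest in Brd1+/- mice given IMN, where no library passed 21.1 TPM, although 2 WT vehicle libraries (replicates 7 and 8, at 13.2 and 11.5 TPM) were as low.

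Over the 48 libraries the adhesion genes Pecam1 and Cdh5 varied 3.13-fold and 3.09-fold, against 2.62-fold for Flt1. Pecam1 ran from 9.08 over 14.3 to 18.6 TPM in WT vehicle and from 12.8 over 17.0 to 19.5 TPM in Brd1+/- vehicle mice. With IMN it ran from 8.73 over 14.4 to 27.4 TPM in WT and from 9.36 over 13.4 to 17.0 TPM in Brd1+/- mice. With FLX it ran from 12.5 over 15.9 to 20.4 TPM in WT and from 10.1 over 16.0 to 20.3 TPM in Brd1+/- mice. The highest Pecam1 value was in WT IMN replicate 7, the library with the lowest ratio of haemoglobin to vessel wall TPM. Cdh5 ran from 4.71 over 6.16 to 9.15 TPM in WT vehicle and from 5.17 over 7.25 to 9.52 TPM in Brd1+/- vehicle mice. With IMN Cdh5 ran from 4.25 over 6.38 to 7.93 TPM in WT and from 4.04 over 5.55 to 7.17 TPM in Brd1+/- mice. Under FLX its range went from 4.42 over 6.63 to 11.4 TPM in WT and from 3.69 over 6.40 to 8.10 TPM in Brd1+/- mice. The highest Cdh5 value came from WT FLX replicate 6, which also held the highest haemoglobin level of its group.

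Cldn5, the tight junction gene, ran from 26.6 over 31.8 to 37.7 TPM in WT vehicle and from 20.9 over 33.1 to 40.1 TPM in Brd1+/- vehicle mice. With IMN it ran from 22.9 over 26.1 to 38.7 TPM in WT and from 16.2 over 24.9 to 33.5 TPM in Brd1+/- mice. Its FLX values went from 23.5 over 31.3 to 37.0 TPM in WT and from 19.4 over 24.9 to 31.9 TPM in Brd1+/- mice. Its medians were lowest in both groups of drug-treated Brd1+/- mice. Tek ran from 3.73 over 4.35 to 5.95 TPM in WT vehicle and from 3.74 over 5.36 to 7.93 TPM in Brd1+/- vehicle mice. With IMN Tek ran from 3.81 over 4.88 to 7.27 TPM in WT and from 1.81 over 4.82 to 6.04 TPM in Brd1+/- mice. With FLX it ran from 4.18 over 5.51 to 6.30 TPM in WT and from 2.94 over 4.67 to 5.89 TPM in Brd1+/- mice. The medians of Tek, from 4.35 to 5.51 TPM, lay within its range in every group. Kdr ran from 2.80 over 4.00 to 11.4 TPM in WT vehicle and from 2.44 over 4.03 to 5.31 TPM in Brd1+/- vehicle mice. With IMN Kdr ran from 1.48 over 3.19 to 7.38 TPM in WT and from 1.29 over 2.53 to 4.38 TPM in Brd1+/- mice. With FLX it ran from 0.968 over 3.56 to 5.86 TPM in WT and from 1.59 over 4.24 to 9.01 TPM in Brd1+/- mice. Its 2 highest values came from WT vehicle replicate 1 and Brd1+/- FLX replicate 8, the 2 libraries with the most choroid plexus marker RNA.

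Differences between groups were tested in 7 comparisons, and drug-by-genotype interactions in 2, with limma on log2(TPM + 0.1), with Benjamini-Hochberg adjustment over all genes tested and a call at an adjusted p under 0.05. Differences below are log2 differences of the first group minus the second, with the standard error. In none of the 90 tests was a member called, the lowest adjusted p was 0.203, and 9 of 90 had an unadjusted p under 0.05. Over all genes tested, the share with an unadjusted p under 0.05 ran from 3.58% to 16.8% between comparisons. In all 70 pairs of groups the values of the member overlapped. The share of all genes that overlapped is not given here, so this count is a description only.

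With vehicle, Brd1+/- mice had higher haemoglobin values than WT mice that did not pass the test. The difference was 0.62 ± 0.329 for Hba-a1, 0.64 ± 0.330 for Hba-a2, 0.64 ± 0.328 for Hbb-bs and 0.63 ± 0.347 for Hbb-bt (SE, 8 against 8 mice), with adjusted p from 0.636 to 0.669 in limma. The 95% confidence interval for Hba-a2 went from -0.06 to 1.33. Among the vessel wall genes Pecam1 differed by 0.33 ± 0.149 (unadjusted p = 0.0401, adjusted p = 0.544, limma), and Cldn5 was at -0.00 ± 0.130. In this comparison 0 of 10 members were called, and 0.708% of the 24279 genes tested were. Of all genes, 8.52% had an unadjusted p under 0.05. The 5 oligodendrocyte markers had higher values in the same Brd1+/- mice, with a median difference of 1.53 and with summed levels of 1968 to 14393 TPM against 544 to 9520 TPM in WT mice; 0 of 5 were called and 5 of 5 had an unadjusted p under 0.05. Meningeal fibroblast markers (8 genes, median 0.60, 0 called) were summed to 34.7 to 247 TPM against 28.4 to 514 TPM. Choroid plexus markers were higher in value in 7 of 7 tested (median 1.5, 0 of 7 at an unadjusted p under 0.05), microglia markers in 5 of 5 (median 0.27, 2 of 5) and astrocyte markers in 5 of 6 (median 0.34, 3 of 6), with 0 called in each list. Alas2 was at 1.26, with an unadjusted p under 0.05 and no call. The part of any of these cell types in the haemoglobin and vessel values was not tested.

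In mice given IMN, the values of Brd1+/- against WT mice lay in opposite directions for the 2 sets. All 6 vessel wall genes had lower means in Brd1+/- mice, with a median difference of -0.22 and Flt1 at -0.39 ± 0.135 (unadjusted p = 0.0108, adjusted p = 1.0, limma). The 4 haemoglobin genes were at 0.17 to 0.41 in the other direction. No member of 10 was called, against 0.017% of 23581 genes. Of all genes, 3.58% had an unadjusted p under 0.05. Meningeal markers were higher in value in 8 of 8 (median 0.81, 2 of 8 at an unadjusted p under 0.05) and choroid plexus markers in 6 of 6 tested (median 1.32, 1 of 6), with 0 called in either list. Meningeal sums ran from 30.5 to 166 TPM in Brd1+/- and from 15.3 to 54.9 TPM in WT mice given IMN, and the part of these cells in the haemoglobin values was not tested. In mice given FLX, 5 of 6 vessel wall genes and all 4 haemoglobin genes had lower values in Brd1+/- than in WT mice. Cldn5 came nearest to the threshold, at -0.27 ± 0.129 (adjusted p = 0.308, limma), Kdr was the exception at 0.37 ± 0.370, and the haemoglobin genes lay between -0.30 and -0.16. Again 0 of 10 members were called, while 1.54% of 23635 genes were.

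In WT mice neither drug moved the members past the threshold. With IMN the vessel wall differences lay between -0.49 and 0.19 and the haemoglobin differences between -0.09 and -0.02, with 0 of 10 members called and 0.0% of 23644 genes called; over all genes 1084 had an unadjusted p under 0.05. With FLX the vessel wall differences lay between -0.51 (Kdr) and 0.31 (Flt1), the haemoglobin differences between 0.26 and 0.46, and 0 of 10 members were called, against 0.335% of 23557 genes. Without WT vehicle replicate 1 that count of genes called over the whole table rose from 79 to 956, and without WT FLX replicate 7 it fell to 1, so the background share in this comparison rests on single libraries. Oligodendrocyte markers had higher values with FLX in WT mice, with a median of 1.26 and 0 called. Of these markers 5 of 5 had an unadjusted p under 0.05, where 16.8% of all genes did.

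In Brd1+/- mice the vessel wall genes had lower mean values with IMN than with vehicle, and none passed the test. All 6 had negative differences, with a median of -0.41. Flt1 differed by -0.45 ± 0.150 (unadjusted p = 0.00864, adjusted p = 0.300), Pecam1 by -0.36 ± 0.124 (unadjusted p = 0.0107, adjusted p = 0.328) and Cdh5 by -0.42 ± 0.158 (unadjusted p = 0.0170, adjusted p = 0.378) in limma. Cldn5 was at -0.34 ± 0.168, Tek at -0.40 ± 0.237 and Kdr at -0.52 ± 0.252. The haemoglobin genes also had lower values, from -0.54 to -0.25 with larger standard errors of 0.331 to 0.350. In all, 0 of 10 members were called, while 0.776% of 24225 genes were, 4 of them higher and 184 lower with IMN. The median difference over all genes was -0.03, and 9.3% of all genes had an unadjusted p under 0.05. The same comparison had lower oligodendrocyte markers (median -1.04, 0 of 5 called, 5 of 5 with an unadjusted p under 0.05), whose sum ran from 986 to 5929 TPM with IMN and from 1968 to 14393 TPM with vehicle. Astrocyte markers (median -0.34, 0 of 6 called) summed to 884 to 1695 TPM with IMN and to 896 to 1837 TPM with vehicle. The part of these cells in the vessel wall values was not tested.

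With FLX in Brd1+/- mice, 5 of 6 vessel wall genes and 4 of 4 haemoglobin genes had lower values than with vehicle. Cldn5 differed by -0.33 ± 0.148 (unadjusted p = 0.0424, adjusted p = 0.692, limma), Kdr was at 0.15 ± 0.293, and the haemoglobin genes lay between -0.63 and -0.34. As before 0 of 10 members were called, with 0.731% of 24336 genes called.

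The interactions asked whether a drug difference was unlike in the 2 genotypes. For IMN, Flt1 had the interaction furthest from 0 among the members, -0.64 ± 0.230 (unadjusted p = 0.00914, adjusted p = 0.364, limma), since its IMN difference was 0.19 in WT and -0.45 in Brd1+/- mice. All 10 members had negative interactions for IMN, 0 of 10 were called, and 0.536% of 26673 genes were. Of all genes, 9.24% had an unadjusted p under 0.05 for the IMN interaction. For FLX, Tek was at -0.57 ± 0.234 (unadjusted p = 0.0202, adjusted p = 0.203) and Flt1 at -0.48 ± 0.236 (unadjusted p = 0.0496, adjusted p = 0.297) in limma. The haemoglobin genes had the largest FLX interactions in size, from -0.92 ± 0.491 for Hba-a1 to -0.80 ± 0.500 for Hbb-bt, with adjusted p from 0.349 to 0.437. Of 10 members 0 were called, against 1.71% of 26657 genes. For the FLX interaction 16.8% of all genes had an unadjusted p under 0.05. Oligodendrocyte markers had interactions in the same direction and larger, with a median of -1.95 for IMN and of -2.1 for FLX, 5 of 5 at an unadjusted p under 0.05 and 0 of 5 called for each. Microglia markers had a median of -0.45 for IMN (4 of 5 at an unadjusted p under 0.05, 0 called), and astrocyte markers one of -0.58 for FLX (3 of 6, 0 called). The part of these cells in the members' interactions was not tested. The comparisons within a genotype share their vehicle mice, so the values for IMN and FLX are not independent of each other.

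The other genes of the vessel pathways had few calls. Of 30 other endothelial genes, all measured and tested, Abcg2 and Abcb1a were called in 1 comparison each, where 0.776% and 0.335% of all genes were. On leaving out 1 library the second share ran from 0.00429% to 4.11%. Abcg2, an efflux transporter of the blood-brain barrier, fell by 0.91 ± 0.204 with IMN in Brd1+/- mice (adjusted p = 0.0481, limma), from 17.3 ± 3.63 TPM with vehicle to 9.47 ± 3.18 TPM (SD, n = 8). Its call was lost in 13 of the 16 fits that left out 1 library, where adjusted p ran from 0.0258 to 0.136. In the same comparison 28 of the 30 endothelial genes had negative differences, with a median of -0.37, and 16 of 30 had an unadjusted p under 0.05 where 9.3% of all genes did. Abcb1a (P-glycoprotein), another efflux transporter, was higher by 0.61 ± 0.115 with FLX than with vehicle in WT mice (adjusted p = 0.0352, limma). Its means were 18.5 ± 3.18 against 12.1 ± 1.60 TPM (SD, n = 8). WT vehicle had the lowest mean of all groups, as the others had 16.5 (WT IMN), 18.1 (Brd1+/- vehicle), 15.9 (Brd1+/- IMN) and 15.3 TPM (Brd1+/- FLX). The Abcb1a call was lost in 11 of 16 fits that left out 1 library, with adjusted p from 0.0165 to 0.0933. The most abundant of the 30 were Slc2a1 (96.7 ± 20.6 TPM), the glucose transporter of the barrier, Pltp (65.1 ± 39.3 TPM) and Itm2a (58.2 ± 9.83 TPM, SD, n = 48), with 0 calls. The sum of the 30 had a median of 705 TPM. It was highest in Brd1+/- FLX replicate 8 (1036 TPM) and reached 1035 TPM in WT vehicle replicate 1, the 2 libraries with the most choroid plexus marker RNA. The part of choroid plexus tissue in these sums was not tested.

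Among ligands, receptors and partners of Flt1, Kdr and Tek, 1 of 11 genes was called. Vegfb, a ligand of Flt1, was lower in Brd1+/- than in WT mice given FLX, by 0.53 ± 0.0848 on the log2 scale (adjusted p = 0.0113, limma). The 8 WT FLX mice held 93.5 to 120 TPM and the 8 Brd1+/- FLX mice 59.8 to 85.9 TPM, with no overlap. In this comparison 1.54% of all genes were called and 16.6% had an unadjusted p under 0.05. The share of all genes without overlap is not given here. Its FLX-by-genotype interaction was -0.65 ± 0.147 (adjusted p = 0.0168, limma). Both calls held in every fit that left out 1 library, and each was lost in 2 of 9 other settings, where adjusted p reached 0.0624 for the first and 0.0549 for the interaction. Vegfb had the highest mean of the list (85.2 ± 17.9 TPM), followed by Vegfa (70.5 ± 11.0 TPM), a ligand of both Flt1 and Kdr, and Nrp2 (26.4 ± 15.7 TPM, SD, n = 48), a co-receptor.

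Of 14 genes of mural cells, the pericytes and smooth muscle cells around the endothelium, 1 was called, in a comparison where 1.71% of all genes were. Notch3, a receptor of mural cells, had an FLX-by-genotype interaction of -1.0 ± 0.208 (adjusted p = 0.00887, limma). With vehicle its mean was 6.83 ± 1.52 TPM in WT mice against 9.05 ± 0.992 TPM in Brd1+/- mice, and with FLX it was 9.20 ± 0.893 against 6.32 ± 1.54 TPM (SD, n = 8). All 32 fits that left out 1 library kept this call. Vtn (76.6 ± 14.7 TPM), Rgs5 (44.7 ± 8.43 TPM) and Acta2 (15.6 ± 8.36 TPM, SD, n = 48), a smooth muscle actin, were the most abundant of the list and had 0 calls.

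**Figure D3:**
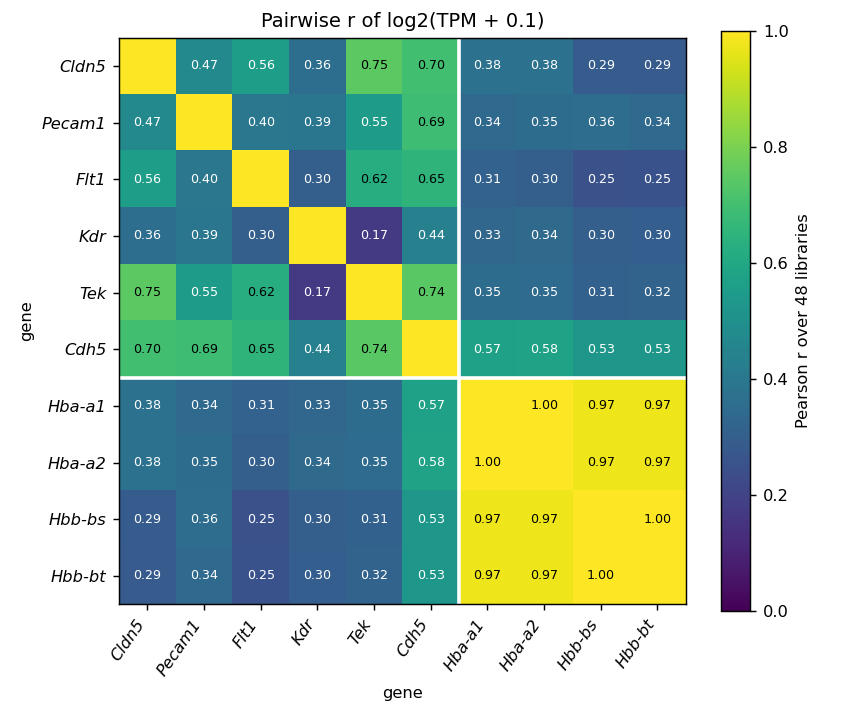
Pearson r of log2(TPM + 0.1) over 48 libraries for each pair of the 10 genes, with colour from 0 to 1 and white lines between vessel wall and haemoglobin genes. The 4 haemoglobin genes form a block at 0.97 to 1.00, the vessel wall genes lie between 0.17 and 0.75, and pairs across the sets between 0.25 and 0.58.

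Across libraries the haemoglobin genes formed a tight block apart from the vessel wall genes. The 6 pairs of haemoglobin genes had r between 0.97 and 1.00, with the between-copy pairs also resting on shared reads, whereas the pairs of an alpha-globin with a beta-globin gene share no read-length window. Hba-a2 and Hbb-bs had r = 0.974 and rho = 0.946 (permutation test, adjusted p = 3.75e-05 and 4.09e-05 over 45 pairs). Both had an unadjusted p of 1e-05 in that test, the smallest that 100000 permutations can give. Leaving out the 2 libraries farthest from the median of Hba-a2 gave r = 0.968. Within the 16 vehicle libraries r was 0.990, and within the 32 drug libraries 0.980. Without the 2 libraries with the most choroid plexus marker RNA, all 6 pairs kept an adjusted p under 0.05, with r from 0.97 to 1.00.

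The 15 pairs of vessel wall genes had a median r of 0.55, and 14 of 15 had an adjusted p under 0.05 in the permutation test. The highest r was that of Cldn5 with Tek, at r = 0.747 and rho = 0.689 (adjusted p = 3.75e-05 and 4.09e-05, permutation test), and r = 0.661 without the 2 farthest libraries. Tek with Cdh5 was almost level in r (0.744) and higher in rho (0.715), with r = 0.725 without the 2 libraries farthest from the median of Tek. Pecam1 with Cdh5 had the highest rho (0.743). Without the 2 libraries rich in choroid plexus markers, 13 of 15 pairs had an adjusted p under 0.05, and Cldn5 with Tek had r = 0.761. Within vehicle libraries this pair had r = 0.767 and within drug libraries r = 0.760, where Tek with Cdh5 had 0.864 and 0.699. Kdr was the least tied member: with Tek it had r = 0.170 (adjusted p = 0.246, permutation test), with Flt1 0.304 and with Cdh5 0.437. Flt1 and Pecam1 were hardly related in the vehicle libraries (r = 0.002, n = 16) and related in the drug libraries (r = 0.615, n = 32), a difference that was not tested.

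**Figure D4:**
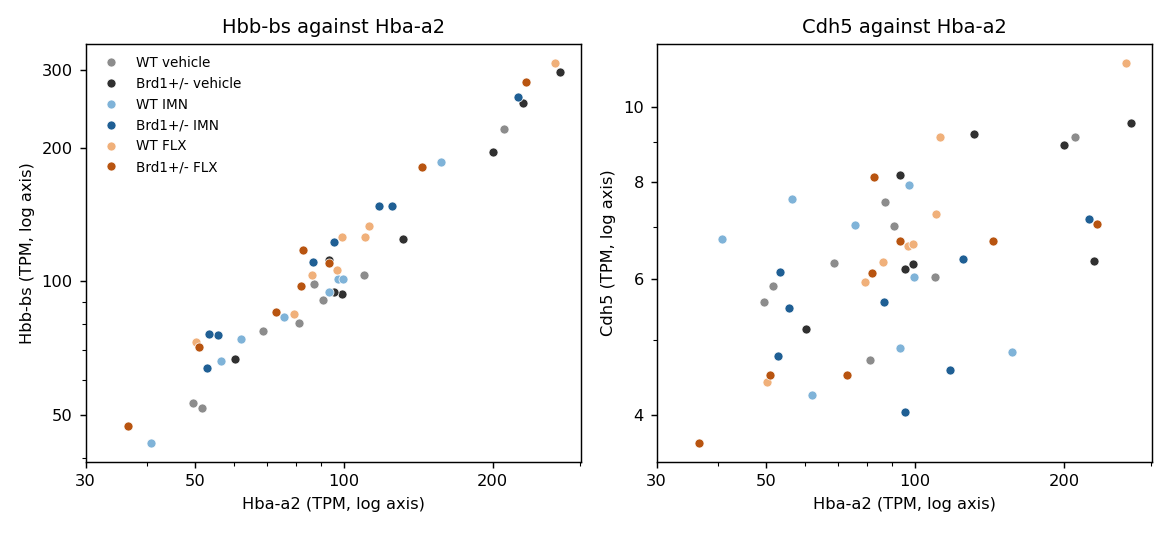
Hbb-bs (left) and Cdh5 (right) against Hba-a2 in TPM, with log axes on both scales, 1 point per library and colours by group. The beta-globin gene lies along a narrow line with the alpha-globin gene (r = 0.974), whereas Cdh5, the vessel wall gene closest to it, scatters widely (r = 0.577).

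Haemoglobin and vessel wall genes were related weakly. The 24 pairs had a median r of 0.34, and 20 of 24 had an adjusted p under 0.05 in the permutation test. Without the 2 libraries with the most choroid plexus marker RNA, an alternative chosen after the data were seen, 15 of 24 did, with a median r of 0.32. The closest pair was Cdh5 with Hba-a2, at r = 0.577 and rho = 0.545 (adjusted p = 0.000129 and 0.000397, permutation test), with r = 0.477 without the 2 farthest libraries. Within the vehicle libraries the 24 pairs had a median r of 0.57 (n = 16) and within the drug libraries 0.26 (n = 32). For Tek with Hba-a2 these were 0.756 and 0.152, and for Cdh5 with Hba-a2 they were 0.694 and 0.505. Group means were not removed for these values, and the difference between vehicle and drug libraries was not tested. All values of a library share its scaling and its tissue, so these r describe libraries, not cells.

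After group means were removed, the 10 genes most like the mean of the 6 vessel wall genes, of 19212 others with a mean of at least 1 TPM, were Slfn5 (r = 0.76), Myl9 (0.74), She (0.74), Tns2 (0.74), Itih5 (0.73), Hhatl (0.73), Ehd2 (0.73), H2-Q4 (0.73), Pgm5 (0.72) and Ptprb (0.72), over 48 libraries. Over all those genes r had a median of 0.02, and its middle 95% lay between -0.43 and 0.57. By list, mean levels of mural cell genes followed the vessel wall genes with r = 0.88, other endothelial genes with 0.84, oligodendrocyte markers with 0.61, meningeal fibroblast markers with 0.58, haemoglobin genes with 0.47 and choroid plexus markers with 0.13. Without the 2 libraries rich in choroid plexus markers these were 0.87, 0.83, 0.57, 0.55, 0.43 and -0.03. Astrocyte markers followed the vessel wall genes with r = 0.57, and with 0.59 without the 2 libraries.

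The 10 genes most like the haemoglobin mean were S100a6 (r = 0.79), Ifitm3 (0.73), Slc6a20a (0.73), Ahnak (0.72), Kank2 (0.72), Il1r1 (0.71), Vim (0.71), Msn (0.70), Lyz2 (0.69) and Mmp14 (0.69). Of these, Vim (vimentin) is an intermediate filament gene of mesenchymal and glial cells, and Lyz2 encodes a lysozyme of myeloid cells. By list, meningeal fibroblast markers followed the haemoglobin genes with r = 0.67, other endothelial genes with 0.55, mural cell genes with 0.53, oligodendrocyte markers with 0.45, choroid plexus markers with 0.44, microglia markers with 0.05 and amygdala and neuron markers with -0.51. Without the 2 libraries rich in choroid plexus markers the same values were 0.57, 0.50, 0.49, 0.35, 0.21, 0.12 and -0.38. Astrocyte markers followed the haemoglobin genes with r = 0.47, and with 0.51 without the 2 libraries. Meningeal marker sums ran from 15.3 to 588 TPM over all libraries, and their part in the haemoglobin values was not tested.

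Among the vessel wall genes, the deviations of Kdr followed the choroid plexus markers with r = 0.44, and with 0.24 without the 2 libraries, while the other 5 followed them with r between -0.09 and 0.18. The meningeal markers were followed by Kdr with r = 0.64 and by Cdh5 with 0.62, by Pecam1 with 0.48, and by Cldn5, Tek and Flt1 with 0.33, 0.34 and 0.28. Without the 2 libraries Cdh5 was at 0.57 and Kdr at 0.53. The part of choroid plexus tissue in the Kdr values was not tested.

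The balance of alpha-globin to beta-globin mRNA varied much less within groups than the haemoglobin level did. It was looked at after the values had been seen and is given as a description, with no test. Within a library the scaling of TPM cancels in this ratio of (Hba-a1 + Hba-a2) to (Hbb-bs + Hbb-bt), and no read of 50 bases matches both kinds. The ratio was 1.11 ± 0.0713 in WT vehicle, 1.11 ± 0.0844 in Brd1+/- vehicle and 1.06 ± 0.0725 in WT IMN mice (SD, n = 8). It was 0.978 ± 0.0911 in WT FLX, 0.909 ± 0.0689 in Brd1+/- IMN and 0.910 ± 0.0568 in Brd1+/- FLX mice. The spread within groups, 0.102 on the log2 scale, was far below the 0.650 to 0.674 of the single genes.

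In Brd1+/- mice all 8 FLX libraries (0.826 to 0.968) lay below all 8 vehicle libraries (0.984 to 1.20), a log2 difference of -0.28. With IMN 7 of 8 Brd1+/- libraries lay below every Brd1+/- vehicle library (log2 difference -0.29). In WT mice 6 of 8 FLX libraries and 3 of 8 IMN libraries lay below every vehicle library (-0.19 and -0.07). Between genotypes the log2 difference was -0.01 with vehicle, -0.22 with IMN and -0.10 with FLX. With IMN 6 of 8 and with FLX 0 of 8 Brd1+/- libraries lay below every WT library.

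The sample codes of vehicle mice run from F121 to F155 and those of drug mice from F351 to F445, and what the codes stand for is not given in the sources used here. Anything tied to those ranges cannot be told apart from drug against vehicle. Among drug mice with code numbers over 400, WT codes run from F434 to F445 and Brd1+/- codes from F402 to F422. Anything tied to these higher ranges cannot be told apart from genotype in those mice, while lower codes hold both genotypes. This touches every comparison of genotypes with IMN or FLX. The alternative fit with a code range term cut drug mice at 400 only, so both higher ranges fall together in it. Within the drug mice, Brd1+/- FLX libraries had a mean ratio of 0.878 with code numbers under 400 (n = 5) and 0.963 with higher codes (n = 3), and Brd1+/- IMN libraries 0.919 (n = 6) and 0.879 (n = 2). Brd1+/- vehicle libraries had 1.08 with codes under 130 (n = 3) and 1.13 with the others (n = 5). No range of codes holds both vehicle and drug mice. WT IMN libraries had 1.02 (n = 4) and 1.10 (n = 4), WT FLX libraries 1.01 (n = 3) and 0.957 (n = 5), and WT vehicle libraries 1.07 (n = 3) and 1.14 (n = 5).

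**Figure D5:**
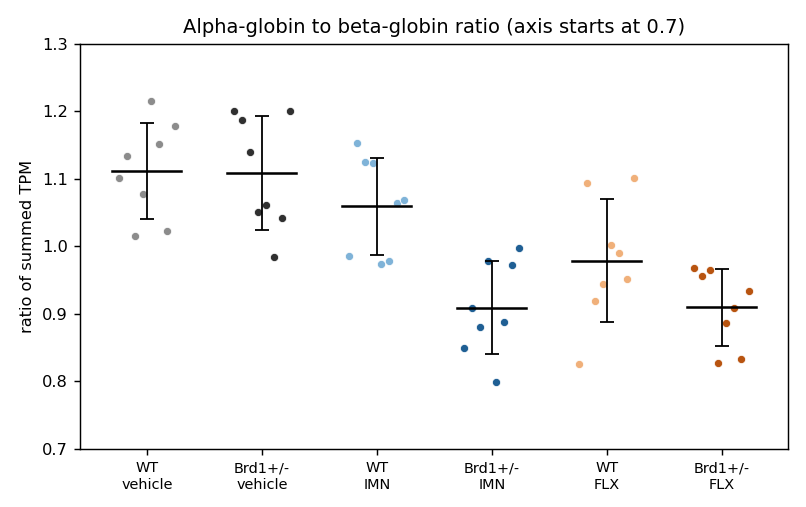
Ratio of summed alpha-globin to summed beta-globin TPM in each library by group, with an axis from 0.7 to 1.3; points are libraries, the long bar is the group mean and the error bar 1 SD (n = 8). Both vehicle groups and WT IMN centre at 1.06 to 1.11, and both drug groups of Brd1+/- mice at 0.909 and 0.910, with every Brd1+/- FLX point under every Brd1+/- vehicle point.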

How the data were processed

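RNA from punches of the amygdala of 48 mice was sequenced as single-end reads of 50 bases from TruSeq libraries. Per the labels and the study's methods, the authors used FastQC, Trimmomatic, HISAT2 2.1.0 and StringTie 1.3.4 on GRCm38 with an Ensembl annotation, and deposited TPM, 1 column per library. TPM is a share, so RNA of other cells lowers it, and depth per sample is unknown; no counting interval or detection limit was computed. Whether strand was used in counting, and whether the brains were perfused, is not given in the sources used here. The series' design text names other regions, but the sample labels say amygdala and were followed.

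Groups came from the labels. Each mouse gave 1 library. Columns summed to 999524 to 999772 TPM. The authors compared counts with edgeR; TPM cannot take a count model, so limma 3.58.1 (R 4.3.3) was fitted to log2(TPM + 0.1), with a trended eBayes prior and two-sided tests, on the groups compared, for genes with at least 0.1 TPM in at least 8 libraries. Differences on this scale understate changes of low genes. Correlations used 100000 permutations and adjustment over 45 pairs (Python 3.11.15, SciPy 1.17.1). The code was tested on simulated data.

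Named genes were the 10 members, Brd1, the called genes and up to 3 most abundant genes of each of 14 lists (127 of 128 symbols matched), and the 10 genes most like each set. Genes named for being at 0 were chosen after their values were seen. For markers of other cells, sums are given instead. The members and lists were chosen with earlier results of these data known. Names and coordinates came from GENCODE M21, and promoters from RefSeq on GRCm38.p6. Alternatives were other pseudocounts (0.01 and 1), filters (none, or 1 TPM), median-ratio scaling, no trend, 1 fit of 48 libraries, a block by replicate number, a code range term, and leaving out each library.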

Additional observations from a re-analysis of the deposited data

Results flagged for a closer look

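A test for a value far from the rest of its group used Dixon's gap against the group's range (8 libraries). It was run on 78 groups of values, for the 10 genes, both sums and the alpha-to-beta ratio, and marked 22. Chance marks about 1 in 20 only where values are normally distributed. The test used TPM rather than log2 values, and the haemoglobin values had a tail of high libraries. That rate need not hold here, and the number of marks is not read as an excess. The marks are not independent, because 4 libraries account for the 18 among the haemoglobin genes and their sum. WT vehicle replicate 1 held 178.0 TPM of Hba-a1, 210.4 of Hba-a2, 220.6 of Hbb-bs and 132.3 of Hbb-bt, 741 in sum, and it is also the library with the most choroid plexus marker RNA and with the Kdr value of 11.4 TPM. Brd1+/- IMN replicate 4 held 185, 225, 261 and 159 TPM of the same 4 genes, 830.0 in sum. WT FLX replicate 6 held 217, 267, 311 and 179 TPM, 975 in sum. WT IMN replicate 6 held 186 TPM of Hbb-bs and 109 of Hbb-bt, 585 in sum. Among the vessel wall genes the values far from their group were Cldn5 at 38.7 TPM in WT IMN replicate 3, Pecam1 at 12.8 TPM in Brd1+/- vehicle replicate 8, below the rest, and Pecam1 at 27.4 TPM in WT IMN replicate 7.

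A pair of genes of the vessel pathways had FLX differences that differed between the genotypes in limma's interaction test. Vegfb had an interaction of -0.65 (adjusted p = 0.0168) and Notch3 one of -1.0 (adjusted p = 0.00887).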

How the results depend on the processing

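No member was called in any of 2570 alternative results, each for 1 member in 1 alternative fit. The lowest adjusted p among them was 0.114 (limma). Signs changed in 56 of these alternative results, which touched 14 main results with differences of at most 0.19 in size. Median-ratio scaling turned Pecam1 between genotypes with FLX to 0.06, and the code range term turned Hbb-bs and Hbb-bt with IMN in WT mice to 0.02 and 0.02. Leaving out 1 library, with the sign changing in at least 1 fit, gave a range of -0.05 to 0.08 for Cldn5 between genotypes with vehicle. With IMN, the genotype differences ran from -0.02 to 0.31 for Hba-a1, -0.00 to 0.33 for Hba-a2 and -0.21 to 0.03 for Pecam1. With FLX, they ran from -0.36 to 0.04 for Hbb-bs, -0.38 to 0.02 for Hbb-bt and -0.07 to 0.08 for Pecam1. For IMN in WT mice the ranges were -0.23 to 0.10 (Hba-a1), -0.24 to 0.09 (Hba-a2), -0.17 to 0.17 (Hbb-bs), -0.18 to 0.17 (Hbb-bt) and -0.05 to 0.18 (Pecam1). Kdr ran from -0.01 to 0.34 for FLX in Brd1+/- mice and from -0.23 to 0.13 for the IMN interaction.

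The shares of all tested genes that were called, the background in the report, depended on the settings, and the cause was not tested. For the genotypes with vehicle, 0.708% became 0.850% without a filter, 0.128% with a filter of 1 TPM and 1.46% in 1 fit of all libraries. For the genotypes with FLX, 1.54% became 0.669% without a filter, 0.901% without a trend, 0.104% in 1 fit of all libraries and 0.533% with the code range term. For FLX in WT mice, 0.335% became 0.152% without a filter, 0.685% with a filter of 1 TPM, 0.115% without a trend, 0.0358% in 1 fit of all libraries and 0.191% with the code range term. In Brd1+/- mice, 0.776% for IMN became 0.851%, 0.122% and 1.57% under no filter, a filter of 1 TPM and 1 fit of all libraries, and 0.731% for FLX became 0.796%, 0.128% and 1.49%. The IMN interaction went from 0.536% to 0.322% with a pseudocount of 0.01 and to 0.0740% with a filter of 1 TPM, and the FLX interaction from 1.71% to 1.28% with that filter. Leaving out 1 library gave 0.336% (without Brd1+/- vehicle replicate 4) to 1.46% (without WT vehicle replicate 1) for the genotypes with vehicle, and 0.299% (without WT FLX replicate 7) to 2.09% (without Brd1+/- FLX replicate 6) with FLX. For IMN in WT mice it gave 0.0% to 0.0128% (without WT vehicle replicate 5), and for FLX in WT mice 0.00429% (without WT FLX replicate 7) to 4.11% (without WT vehicle replicate 1). In Brd1+/- mice it gave 0.374% (without vehicle replicate 4) to 0.725% for IMN and 0.368% (without vehicle replicate 3) to 0.690% for FLX, and for the FLX interaction 0.932% (without Brd1+/- vehicle replicate 2) to 2.62% (without Brd1+/- FLX replicate 4).

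Replicate numbers did not pair the mice: the same number correlated between groups from -0.351 to 0.396. With the replicate number as a block, 0.259% of genes were called for the genotypes with vehicle, 0.195% with FLX, 0.0% for FLX in WT mice, 0.359% for IMN and 0.333% for FLX in Brd1+/- mice, and 0 of the members, and no group pair had more than 2 of 8 libraries that correlated best with their own number. Of 9 alternatives that kept all libraries, Abcb1a lost its call in 4 (adjusted p from 0.0317 to 0.112), Abcg2 in 6 (0.0424 to 0.167), and Vegfb in 2 for the genotypes with FLX (0.0106 to 0.0624) and in 2 for the interaction (0.0159 to 0.0549). Notch3 kept its call in all 9 (0.00796 to 0.0316). Depth is unknown, so what it limits cannot be given.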

Other observations

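Choroid plexus RNA entered the punches unevenly. Ttr, the transthyretin gene that choroid plexus epithelium expresses very strongly, ran from 0 to 28369 TPM, was listed at 0 in 3 libraries and had a median of 9.03 TPM, and the 2 libraries with the highest values gave it 28369 and 27594 TPM. Both also had the highest meningeal marker sums, 514 and 588 TPM, where the median library had 47.4. Haemoglobin was at 741 and 874 TPM in them, but the 2 highest haemoglobin sums of all, 982 TPM in Brd1+/- vehicle replicate 7 and 975 TPM in WT FLX replicate 6, came from other libraries.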
